A study of Mus musculus with 18 samples.

Results

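The spread between mice was compared in livers of male C57BL/6 mice that were or were not given methotrexate (MTX), an antifolate drug used against tumours and inflammatory disease. All 18 arrays of the series were used, 10 from treated and 8 from untreated mice, and every array was centred on the mean of its own diet and treatment group, so that the comparison concerns how far the mice of a group lay apart and not how far the groups lay apart. The LFD group held 4 untreated mice on a low fat diet (10% fat) and the HFD group 4 untreated mice on a high fat diet (60% fat), eaten since the age of 6 weeks. The LFD MTX50 and HFD MTX50 groups held 5 mice each on the same diets, which after 10 weeks were also given 5 rounds of methotrexate at 50 mg/kg into the peritoneum, and livers were taken 1 week after the last round. The labels name no vehicle injection for the untreated mice, and each array holds the total liver RNA of 1 mouse.

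Methotrexate blocks dihydrofolate reductase and with it the supply of one-carbon units for thymidine and purine synthesis, and it acts most on dividing cells such as the blood-forming precursors. Many liver transcripts follow feeding, hormones, inflammation and the time of day, so that mice kept alike can still differ in them. Metallothioneins, small proteins that bind zinc and copper, are classical genes of this kind and are switched on by metals, glucocorticoids and inflammation, in part through metal response elements bound by the factor MTF-1.

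Because the metallothionein genes Mt1 and Mt2 were among the genes whose levels lay farthest apart between treated livers and rose and fell together from mouse to mouse, their promoters are shown here. Each stretch is the 300 bases that RefSeq places around the gene start (250 before and 50 after) in the build GRCm38.p6, written 5′ to 3′ on the plus strand, chr8:94178839-94179138 for Mt1 and chr8:94172368-94172667 for Mt2. Capitals mark the metal response element core, searched as TGCACNC and TGCGCNC on both strands.
Mt1: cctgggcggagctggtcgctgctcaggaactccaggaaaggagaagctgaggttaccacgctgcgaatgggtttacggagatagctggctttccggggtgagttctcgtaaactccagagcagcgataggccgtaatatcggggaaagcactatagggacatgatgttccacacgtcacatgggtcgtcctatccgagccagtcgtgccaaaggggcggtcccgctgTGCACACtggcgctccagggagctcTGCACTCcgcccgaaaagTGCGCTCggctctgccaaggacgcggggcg
Mt2: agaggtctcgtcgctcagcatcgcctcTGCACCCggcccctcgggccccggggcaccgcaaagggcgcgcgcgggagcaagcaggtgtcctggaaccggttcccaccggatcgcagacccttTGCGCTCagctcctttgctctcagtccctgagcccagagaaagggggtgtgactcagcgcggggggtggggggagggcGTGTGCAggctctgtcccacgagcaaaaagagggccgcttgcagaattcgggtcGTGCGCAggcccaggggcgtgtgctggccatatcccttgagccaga
The window of Mt1 held 3 matches and that of Mt2 held 4. Of 27025 promoters of the same length, 25.6% held at least 1 match and 2.00% held at least 3. A match describes these letters and is not evidence of binding.

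Levels are log2 values of the background-subtracted signal relative to the 75th percentile of the same array, so that a level of 0 is the brightness of that percentile and a difference of 1 is a factor of 2. Of 21153 genes with a name on the array, 17719 had a probe well above background on 18 of 18 arrays, and each gene was read on the brightest such probe. The 9 hepatocyte marker genes tested had a mean level between 6.23 and 7.02 in every liver, far above that of the 5 bile duct markers, whose mean was between -3.80 and -2.76. The highest mean of the skeletal muscle markers was -1.69 in treated and -1.59 in untreated livers, that of the adipose markers -2.95 and -2.28, and that of the exocrine pancreas markers -0.44 and -0.20.

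Treated livers lay farther from the mean of their own group than untreated livers did. The distance of a liver was taken as the root mean square of its deviations over all tested probes, in log2 units and corrected for group size. It was 0.287, 0.247, 0.211 and 0.255 in the LFD mice, 0.245, 0.216, 0.318, 0.344 and 0.383 in the LFD MTX50 mice, 0.305, 0.187, 0.269 and 0.194 in the HFD mice and 0.446, 0.366, 0.298, 0.326 and 0.437 in the HFD MTX50 mice. The group means were 0.250 ± 0.031 (SD, n = 4), 0.301 ± 0.069 (SD, n = 5), 0.239 ± 0.058 (SD, n = 4) and 0.375 ± 0.066 (SD, n = 5). Averaged over the diets the distance was greater by 0.0935 with MTX, with a two-sided exact permutation p of 0.00699 over the 15876 ways of exchanging the treatment labels within a diet. The groups overlapped, since LFD MTX50 mice 1 and 2 lay as close to their mean as the LFD mice did, and HFD MTX50 mouse 3 lay closer than HFD mouse 1. HFD MTX50 mice 1 and 5 lay farthest. With normexp background correction the difference was 0.184 and did not pass (exact permutation p = 0.325).

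**Figure D1:**
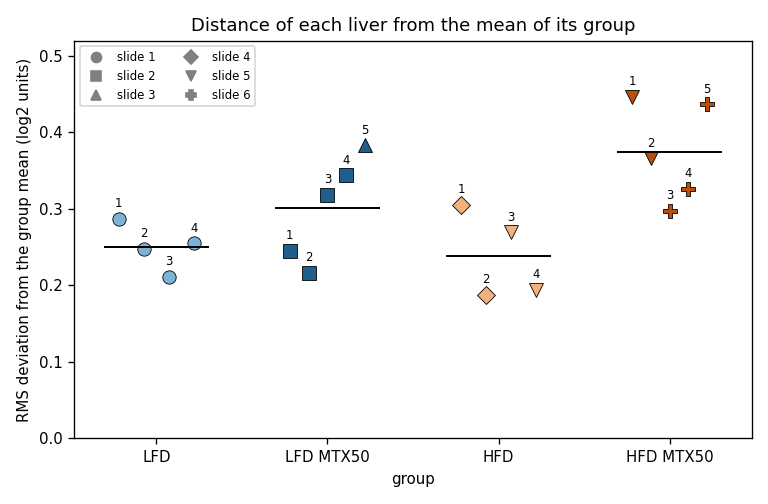
Root mean square deviation of every liver from the mean of its group (y axis, log2 units) by group (x axis); numbers are mice, shapes are array slides and lines are group means. The mean rises from 0.250 to 0.301 with MTX in low fat and from 0.239 to 0.375 in high fat mice, and the treated mice of each diet reach beyond the untreated ones.

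Each slide carries up to 4 arrays, and most slides held 1 group only. The LFD arrays shared slide 1, LFD MTX50 mice 1 to 4 were on slide 2 and mouse 5 on slide 3, HFD mice 1 and 2 were on slide 4, and HFD MTX50 mice 3 to 5 were on slide 6. Slide 5 was the exception, with HFD mice 3 and 4 beside HFD MTX50 mice 1 and 2. On that slide the root mean square SD between mice was 0.386 for the treated and 0.192 for the untreated pair, the median log2 ratio of their variances was 2.20, and the ratio was above 0 for 71.2% of 17675 genes. Within single slides the root mean square SD over all probes was 0.252 for LFD (4 mice), 0.278 for LFD MTX50 (4 mice on slide 2), 0.222 and 0.187 for the pairs of HFD mice, and 0.369 and 0.333 for the HFD MTX50 mice on slides 5 and 6. Outside slide 5, slide and group cannot be told apart.

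Measurement error was read from 2 sets of spots. The SD over the spots of a probe printed 10 times on the array, over 345 such probes, was between 0.0494 and 0.0809 on treated arrays (median 0.0692) and between 0.0459 and 0.0768 on untreated arrays (median 0.0658). For 10 spike-in control probes, which report RNA added in known amounts, the median SD between arrays of a group was 0.319 for treated and 0.230 for untreated arrays. The spike-in log2 variance ratio was between -0.59 and 5.07 with a median of 0.85, and 9 of 10 were above 0. The spike-in probes thus also lay farther apart between treated arrays, and the part of such variation in the gene results was not tested.

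For most genes the SD between mice was larger in treated than in untreated livers. The median SD over 17719 genes was 0.250 between treated mice (8 degrees of freedom) and 0.168 between untreated mice (6 degrees of freedom). Within the low fat groups it was 0.134 untreated and 0.206 treated, and within the high fat groups 0.172 untreated and 0.262 treated. The log2 ratio of treated over untreated variance was above 0 for 14205 genes (80.2%), with a median of 1.16. An SD above 1 log2 unit was found for 302 genes in HFD MTX50, 49 in HFD, 135 in LFD MTX50 and 135 in LFD.

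The spread of each gene was tested with limma on the absolute deviations from the group mean. At an unadjusted p below 0.05, 3257 genes (18.4%) had more spread in treated mice and 299 (1.69%) had less. No gene passed an adjusted p of 0.05 over all probes, where the smallest adjusted p was 0.0657. The 3257 genes became 621 when deviations were taken from the group median and 341 with normexp background correction. Among the brighter probes, where only 9936 genes were tested, the number was 2074. By the alternative F test of the pooled variances 172 genes passed, 125 with more and 47 with less spread. Leaving out 1 array at a time gave at least 1 gene in 13 of 18 fits, and the highest count was without HFD MTX50 mouse 3, with 238 genes of more and 5 of less spread. In 3 of these fits most calls were of less spread in treated mice, with 22 more and 51 less without LFD mouse 2, 40 more and 68 less without LFD mouse 3, and 39 more and 73 less without LFD mouse 4. In what follows a gene "spread more" where its unadjusted limma p was below 0.05, which is a description of single genes against the 18.4% of all genes that do so. The exact permutation p beside a gene exchanges treatment labels within a diet and is two-sided. These p-values measure the spread between these mice, and deviations centred on their own group are only approximately exchangeable. Many of the genes below were named for the size of their spread over the same mice. A small p beside such a gene is therefore a description and not independent support.

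The comparison was also made within each diet. In HFD MTX50 against HFD, 26 genes (0.147%) passed an adjusted limma p of 0.05, 25 with more and 1 with less spread. In LFD MTX50 against LFD, 2 genes passed (0.0113%), both with more spread. None of these calls in either diet was made by the F test, with the group median as centre, with normexp or with a replicate block, each of which called 0 genes within either diet. At an unadjusted p below 0.05 the HFD comparison had 2627 genes with more and 361 with less spread, but with normexp 154 and 338, so that the direction turned, while the LFD comparison had 1561 and 424, and 2144 and 129 with normexp. The difference between the diets passed for 1 gene, Cdc5l (0.00564%). The HFD count was 7 without HFD mouse 4 and 389 without HFD MTX50 mouse 3, and the LFD count was 1 without HFD MTX50 mouse 4 and 219 without LFD mouse 3. The LFD calls turned mostly to less spread without any 1 LFD mouse, with 6 more and 39 less without mouse 1, 16 and 130 without mouse 2, 46 and 173 without mouse 3, and 30 and 173 without mouse 4. Over the 18 fits that leave out 1 array, the HFD count stayed within 1.5 times of its value in 4 and the LFD count in 7. The number of genes that spread more at an unadjusted p stayed between 2541 and 4006 in the same fits.

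The 25 genes with more spread in HFD MTX50 by the limma test included the globins Hbb-b2, Hba-a1 and Hbb-bt, the red cell anion exchanger Slc4a1, the p53-induced gene Trp53inp1, the methyltransferase gene Inmt and the amyloid precursor gene App. The rest, named after their values were seen, were Gm6756, Wdr62, 4921504E06Rik, Usp53, Gpx6, Snx10, Csrp1, Olig1, Cstf3, 5430427O19Rik, Fcnb, Fibp, Vmn2r27, Olfr452, Dck, Gsta4, Lactb2 and Rps18. For 7 of the 26 called genes more than 75% of the variation among HFD MTX50 mice lay between slides 5 and 6, with 98.1% for App, 95.4% for Usp53, 95.1% for Fibp, 94.8% for Trp53inp1 and 91.9% for the ribosomal protein gene Rps18. The median share was 47.5% over the 26 genes and 28.5% over all genes, where 25% is the share of the degrees of freedom. In these genes mice 1 and 2 stood apart from mice 3 to 5, and the part of the slide in this was not tested. Second probes of Wdr62, 4921504E06Rik and Cstf3 did not follow the first, with r of -0.44, -0.46 and -0.50 over the treated mice.

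**Figure D2:**
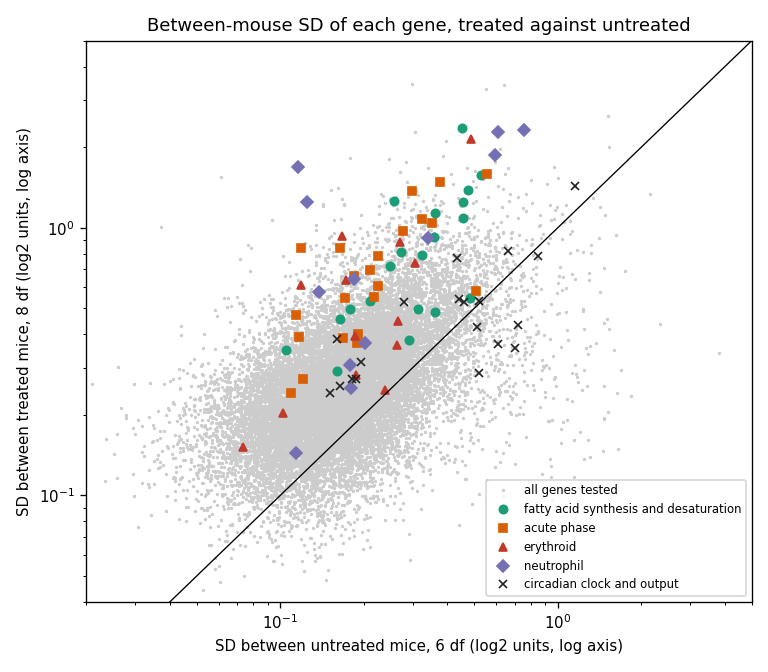
SD between treated mice (y axis, log2 units, log scale) against SD between untreated mice (x axis, log2 units, log scale) for 17719 genes (grey), with the members of 5 gene lists in colour; the line marks equal SDs. Most genes, 80.2%, lie above the line, the acute phase, neutrophil, erythroid and fatty acid synthesis genes well above it and clock genes on both sides of it.

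The members of 30 gene lists were described by the number of members that spread more and by the median log2 variance ratio, beside 18.4% and 1.16 over all genes. Where members are said to rise or fall in mean, the limma adjusted p was below 0.05. By that test 1555 of all 17719 genes rose in treated livers and 1312 fell (16.2% together). The highest medians were those of the acute phase (3.39), neutrophil (3.28), NRF2 target (3.12), CAR and PXR target (2.96) and fatty acid synthesis (2.91) lists. The lowest were those of the endoplasmic reticulum and amino acid stress (0.38), stellate cell and collagen (0.43), bile duct (0.44), metallothionein and heat shock (0.56), macrophage (0.56) and circadian clock (0.60) lists. These are descriptions without a test.

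**Figure D3:**
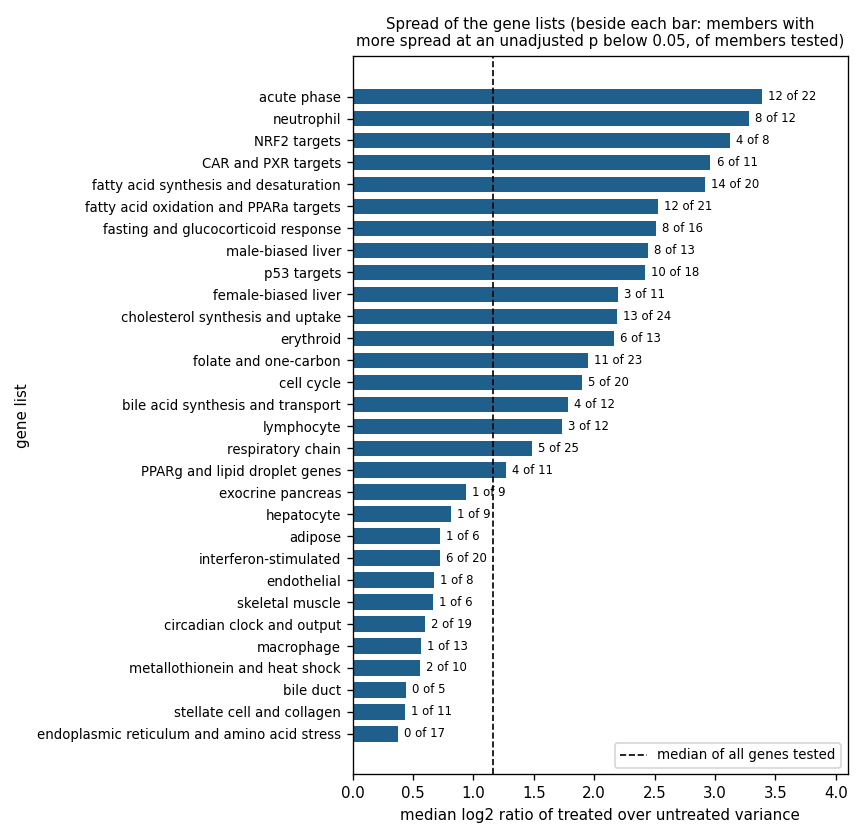
Median log2 ratio of treated over untreated variance (x axis) for each gene list (y axis), with the number of members that spread more of those tested; the dashed line is the median over all genes, 1.16. The acute phase list is highest at 3.39 with 12 of 22 members, and the endoplasmic reticulum and amino acid stress list lowest at 0.38 with 0 of 17.

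Fatty acid synthesis genes lay far apart between treated mice. Of 20 members tested 14 spread more and none less, their median SD was 0.755 between treated and 0.318 between untreated mice, and the mean of 14 members was lower in treated livers (limma adjusted p below 0.05). Scd1, the desaturase that makes oleate from stearate, had the widest spread of the list. Its level was 6.67, 6.58, 6.63 and 6.18 in the LFD mice, 2.66, 5.30, 2.43, 5.76 and 1.29 in the LFD MTX50 mice, 4.87, 5.20, 5.91 and 4.50 in the HFD mice and -1.56, -1.41, 1.71, 2.85 and 4.68 in the HFD MTX50 mice. Every treated mouse but HFD MTX50 mouse 5 lay below all untreated mice of its diet, LFD MTX50 mice 2 and 4 by little and HFD MTX50 mice 1 and 2 by most. The SD was 2.36 between treated and 0.452 between untreated mice, a 5.21-fold difference (limma adjusted p = 0.0764, exact permutation p = 0.000819). Of the variation among HFD MTX50 mice, 84.8% lay between slides 5 and 6. HFD mice 3 and 4, which shared slide 5 with the 2 lowest mice, had the levels 5.91 and 4.50. The part of the slide in the spread of Scd1 was not tested.

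Srebf1, the transcription factor gene that drives lipogenesis, had levels of -0.72, -0.13, -0.57 and -0.022 in the LFD mice, -0.84, -1.19, -2.86, 0.49 and -1.81 in the LFD MTX50 mice, -0.84, -0.57, -0.58 and -0.53 in the HFD mice and -2.36, -3.75, -1.58, -0.67 and -0.73 in the HFD MTX50 mice. The SD was 1.26 between treated and 0.256 between untreated mice (limma adjusted p = 0.15, exact permutation p = 0.00907), with HFD MTX50 mouse 2 and LFD MTX50 mouse 3 lowest. Its mean differed by -1.03 ± 0.41 (SE) with a limma adjusted p of 0.0919. Elovl5, which lengthens polyunsaturated fatty acids, had an SD of 0.812 between treated and 0.273 between untreated mice (limma adjusted p = 0.106, exact permutation p = 0.00202). Fasn, the fatty acid synthase, reached 0.12, 1.28, -2.45, 1.70 and -0.42 in LFD MTX50 mice and -1.55, -3.23, -1.47, -1.15 and -0.30 in HFD MTX50 mice against 1.71, 1.48, 1.99 and 1.66 in LFD and -0.96, 0.23, 0.51 and -0.14 in HFD mice, and its exact permutation p of 0.0762 did not pass 0.05. LFD MTX50 mouse 3 and HFD MTX50 mouse 2 were again the lowest of their groups. The list mean, centred on the group, was -0.17, 0.80, -1.0, 0.78 and -0.42 in LFD MTX50 and -0.39, -0.85, -0.02, 0.50 and 0.76 in HFD MTX50 mice, against -0.32 to 0.25 over the untreated mice.

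Cholesterol synthesis genes spread more as well, with 13 of 24 members, none less and a median ratio of 2.19, although none of the 24 differed in mean. Sqle, the squalene epoxidase, was 3.83, 3.34, 2.15, 0.30 and 3.96 in LFD MTX50 mice and 1.82, 1.82, 2.46 and 1.96 in LFD mice, and LFD MTX50 mouse 4 carried 52.5% of the treated variation. Sqle was not itself among the 13, since its unadjusted limma p was not below 0.05. The cholesterol list was lowest in LFD MTX50 mice 3 and 4, with centred means of -0.64 and -0.88, whereas fatty acid synthesis was lowest in mouse 3 and high in mouse 4. Cyp7a1, the first enzyme of bile acid synthesis, had an SD of 1.3 between treated and 0.716 between untreated mice (exact permutation p = 0.316), and without LFD MTX50 mouse 4, at -2.26, its log2 variance ratio changed from 1.72 to -0.37.

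Genes of fatty acid oxidation and other targets of PPARa, the receptor that answers to fatty acids in fasting, spread more in 12 of 21 cases (none less, median ratio 2.53). Cyp4a14, a fatty acid hydroxylase, was 3.86, 3.91, 4.28 and 3.51 in the LFD mice, 3.34, 4.61, 5.64, 3.86 and 5.30 in the LFD MTX50 mice, 4.40, 4.45, 4.35 and 4.01 in the HFD mice and 5.85, 6.95, 5.70, 5.15 and 2.72 in the HFD MTX50 mice. HFD MTX50 mouse 5 was lowest and mouse 2 highest of all livers, and the SD was 1.3 between treated and 0.262 between untreated mice (limma adjusted p = 0.175, exact permutation p = 0.011). Acadm, the medium-chain acyl-CoA dehydrogenase, was nearly constant in untreated mice (3.73, 3.81, 3.80 and 3.70 in LFD and 4.04, 4.00, 4.05 and 4.07 in HFD). In treated mice it was 3.61, 3.49, 4.17, 3.5 and 3.55 and 4.41, 4.25, 4.11, 4.08 and 3.05, with HFD MTX50 mouse 5 alone below the other mice of its group and LFD MTX50 mouse 3 alone above those of its own. Its SD was 0.43 between treated and 0.044 between untreated mice (limma adjusted p = 0.175, exact permutation p = 0.00479). Acot1, an acyl-CoA thioesterase, had an SD of 1.67 between treated and 0.341 between untreated mice (limma adjusted p = 0.119, exact permutation p = 0.00283) and Fabp1, the liver fatty acid binding protein, of 0.463 between treated and 0.102 between untreated mice (limma adjusted p = 0.118, exact permutation p = 0.0022).

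Fgf21, a hormone that the liver secretes on fasting and under stress, lay far apart between treated mice without passing the test on the mean. Its level was 0.22, -0.33, -0.068 and -0.65 in the LFD mice, -3.21, 0.31, 0.77, 1.93 and -1.75 in the LFD MTX50 mice, -0.048, -0.27, -0.35 and -0.047 in the HFD mice and 0.07, 1.10, 1.36, -1.01 and -1.89 in the HFD MTX50 mice. Untreated mice stayed between -0.65 and 0.22, and treated mice lay on both sides of them, from -3.21 to 1.93. The SD was 1.75 between treated and 0.284 between untreated mice (limma adjusted p = 0.0892, exact permutation p = 0.000756), and the mean differed by -0.04 ± 0.57 (SE) with an adjusted p of 0.972. Among genes of fasting and glucocorticoid response 8 of 16 spread more (none less, median ratio 2.51). Pck1, the gluconeogenic enzyme PEPCK, was 5.87, 5.34, 6.41, 5.30 and 6.21 in LFD MTX50 and 4.54, 5.86, 4.90, 4.27 and 5.50 in HFD MTX50 mice against 4.34 to 5.02 in untreated mice, and its SD was 0.587 between treated and 0.135 between untreated mice (limma adjusted p = 0.1, exact permutation p = 0.00227). Igfbp1, an insulin-repressed binding protein of growth factors, had levels from -0.26 to 5.71 in treated and from 0.33 to 2.51 in untreated mice (limma adjusted p = 0.162, exact permutation p = 0.0238). Tdo2, the tryptophan dioxygenase that glucocorticoids induce, had an SD of 0.448 between treated and 0.125 between untreated mice (limma adjusted p = 0.119, exact permutation p = 0.0012).

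Lipid droplet genes were mixed. Of 11 PPARg target and lipid droplet genes 4 spread more and none less, with a median ratio of 1.27 close to that of all genes. Plin5, a coat protein of droplets that touch mitochondria, had an SD of 0.659 between treated and 0.104 between untreated mice (limma adjusted p = 0.199, exact permutation p = 0.0214), and HFD MTX50 mouse 2, at 4.12, lay above the other 4 mice of its group at 2.35 to 2.76. Cidec, which fuses droplets, had SDs of 0.2 between treated and 0.433 between untreated mice and did not pass (limma adjusted p = 0.425, exact permutation p = 0.26), and without HFD mouse 1 the log2 ratio changed from -2.22 to 0.047. Cd36, a fatty acid carrier, had SDs of 0.411 between treated and 0.567 between untreated mice (exact permutation p = 0.515).

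**Figure D4:**
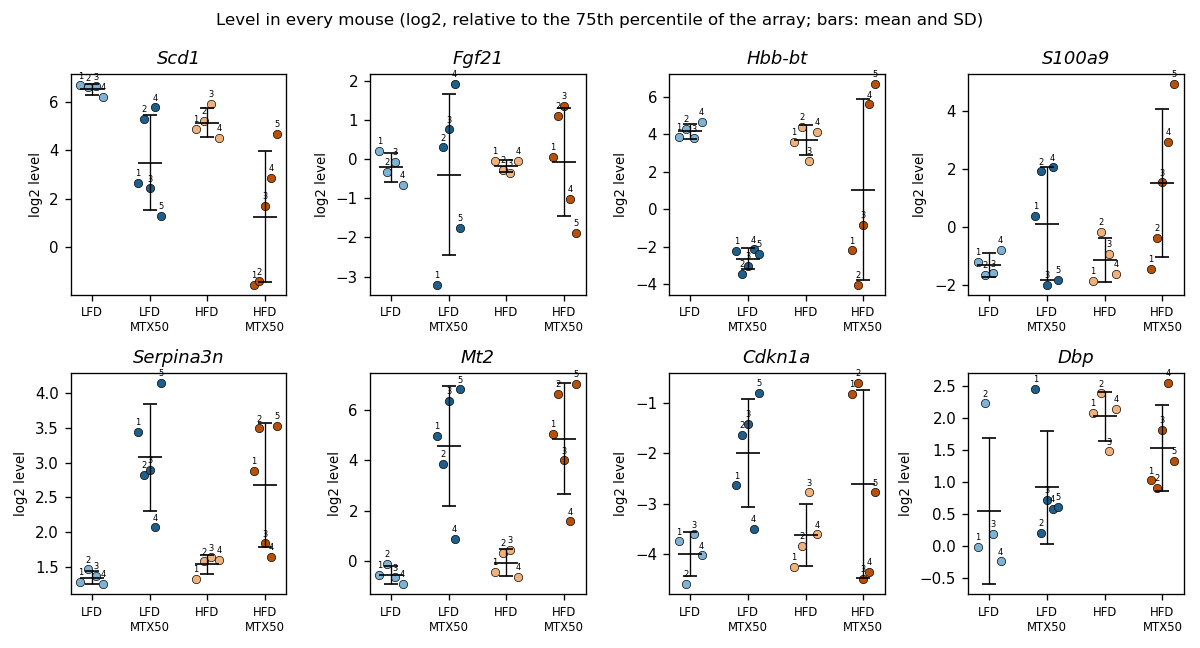
Levels of 8 genes in every mouse (y axes, log2 relative to the 75th percentile of the array) by group (x axes), with mouse numbers and the mean and SD of each group. In 7 of the panels the SD over both diets is larger between treated than between untreated mice. For Dbp, a clock output gene, it is slightly smaller, although its treated levels lie farther apart within the high fat diet.

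Acute phase genes, which the liver secretes in inflammation, spread more in 12 of 22 cases (none less), and 15 members also rose in mean (limma adjusted p below 0.05). Serpina3n, a protease inhibitor, was between 1.25 and 1.64 in the untreated mice. In treated mice it was 3.45, 2.83, 2.90, 2.07 and 4.15 (LFD MTX50) and 2.89, 3.5, 1.84, 1.64 and 3.53 (HFD MTX50), so that HFD MTX50 mouse 4 was at the highest untreated level, mouse 3 just above it and every other treated mouse at 2.07 or higher. The SD was 0.839 between treated and 0.119 between untreated mice (limma adjusted p = 0.0892, exact permutation p = 0.00113). Lcn2, the iron-sequestering lipocalin, was 0.74, 0.97, 1.0 and 0.65 in the LFD mice, 2.01, 1.92, 1.5, 1.57 and 3.39 in the LFD MTX50 mice, 1.15, 1.71, 2.09 and 1.66 in the HFD mice and 3.54, 3.72, 1.07, 1.22 and 5.23 in the HFD MTX50 mice, with an SD of 1.37 between treated and 0.299 between untreated mice (limma adjusted p = 0.121, exact permutation p = 0.00624). Apcs, the serum amyloid P component, had an SD of 0.843 between treated and 0.164 between untreated mice (limma adjusted p = 0.106, exact permutation p = 0.00359).

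The same mice stood out across the list. Its group-centred mean was 0.12, -0.13, 0.033, -0.35 and 0.32 in LFD MTX50 and -0.047, 0.22, -0.73, -0.73 and 1.28 in HFD MTX50 mice, against -0.20 to 0.14 in untreated mice. HFD MTX50 mouse 5 was highest and carried 69.8% of the treated variation of Saa1, a serum amyloid, at a level of 8.49 against 3.28 to 4.85 in the other HFD MTX50 mice (limma adjusted p = 0.317, exact permutation p = 0.118). The median correlation of members over mice was 0.73 in treated and 0.22 in untreated livers, and 0.008 and 0.0115 over all genes.

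Mt2 was higher in every treated mouse than in any untreated one, and both metallothioneins reached very different levels among treated mice. Mt2 was -0.56, -0.11, -0.67 and -0.94 in the LFD mice, 4.97, 3.87, 6.37, 0.87 and 6.84 in the LFD MTX50 mice, -0.45, 0.30, 0.43 and -0.63 in the HFD mice and 5.06, 6.65, 4.00, 1.56 and 7.06 in the HFD MTX50 mice. Mouse 4 was lowest and mouse 5 highest in both treated groups, and no treated mouse overlapped the untreated ones. The SD was 2.3 between treated and 0.449 between untreated mice (limma adjusted p = 0.142, exact permutation p = 0.0051) and the mean rose by 5.05 ± 0.75 (SE) with a limma adjusted p of 0.000473. Mt1 was 6.66, 5.45, 7.12, 2.29 and 7.48 in LFD MTX50 and 5.78, 7.40, 5.22, 3.04 and 7.51 in HFD MTX50 mice, and its centred values followed those of Mt2 with an r of 0.99 over the 10 treated and 0.95 over the 8 untreated mice. Probes of such similar genes can bind RNA of both. The heat shock genes listed with them did not spread alike, and the list as a whole had 2 members with more and 1 with less spread of 10. The one with less was Hspd1, the mitochondrial chaperonin, with SDs of 0.105 between treated and 0.351 between untreated mice (limma adjusted p = 0.175, exact permutation p = 0.00498), where LFD mouse 1, at 4.16, lay below the other LFD mice at 5.00 to 5.18.

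Globin transcripts divided the HFD MTX50 mice. Hbb-bt, an adult beta globin, was 3.84, 4.30, 3.79 and 4.66 in the LFD mice, -2.24, -3.45, -3.04, -2.15 and -2.39 in the LFD MTX50 mice, 3.59, 4.41, 2.58 and 4.14 in the HFD mice and -2.19, -4.03, -0.83, 5.6 and 6.70 in the HFD MTX50 mice. LFD MTX50 mice and HFD MTX50 mice 1 to 3 were all below the untreated mice, whereas HFD MTX50 mice 4 and 5 were above them. The SD was 3.42 between treated and 0.641 between untreated mice (limma adjusted p = 0.0883, exact permutation p = 0.00869), and the difference was called in high fat (limma adjusted p = 0.0104) and not in low fat mice (adjusted p = 0.950), while the test of the difference between the diets did not pass (adjusted p = 0.261). The call in high fat mice, like all such calls, was lost by the F test, with the group median, with normexp and with a replicate block. Hba-a1, an alpha globin, was -0.72, -0.63, -0.10, 4.21 and 5.67 in HFD MTX50 and -0.65, -0.92, -0.84, -1.03 and -0.85 in LFD MTX50 mice against 2.91 to 4.29 in untreated mice, so that HFD MTX50 mouse 4 lay within the untreated range and mouse 5 above it (adjusted p in high fat = 0.00375). Hbb-b2 reached -4.78, -5.97, -3.96, 2.69 and 4.05 in HFD MTX50 mice (adjusted p in high fat = 0.00338). The beta globin genes are near copies of each other and their probes may not tell them apart. Among HFD MTX50 mice the share of variation between slides 5 and 6 was 62.4% for Hbb-bt, 50.8% for Hba-a1 and 56.0% for Hbb-b2.

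Slc4a1, the anion exchanger of red cell membranes, was between -1.79 and -1.31 in untreated and between -1.77 and -1.19 in LFD MTX50 mice. In HFD MTX50 mice it was -1.65, -1.62, -1.73, -0.43 and 0.07, raised in mice 4 and 5 only (adjusted p in high fat = 0.0216). Gata1, the erythroid transcription factor, was -5.27, -5.62, -4.60, -3.66 and -2.78 in the same mice, and its SD was 0.882 between treated and 0.269 between untreated mice (limma adjusted p = 0.14, exact permutation p = 0.00718). Alas2, which starts haem synthesis in red cells, was -0.99, -1.54, -1.20, -0.54 and -2.58 in LFD MTX50 and -1.23, -0.20, 0.34, 1.23 and 1.39 in HFD MTX50 mice against 1.30 to 1.76 in untreated mice. In all, 6 of 13 erythroid genes tested spread more and none less, with a median ratio of 2.16. The array carried 17 genes of this list, of which these 13 were above background on every array. In whole liver RNA fewer cells of a type and less RNA per cell cannot be told apart.

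The neutrophil transcripts S100a8, S100a9 and Retnlg were highest in HFD MTX50 mice 4 and 5. S100a9, a subunit of calprotectin, was -1.22, -1.67, -1.61 and -0.80 in the LFD mice, 0.37, 1.90, -2.01, 2.05 and -1.83 in the LFD MTX50 mice, -1.87, -0.18, -0.94 and -1.63 in the HFD mice and -1.45, -0.38, 1.52, 2.93 and 4.93 in the HFD MTX50 mice. It was highest in HFD MTX50 mouse 5 and lowest in HFD MTX50 mouse 1 of that group, while LFD MTX50 mice 3 and 5 lay below the LFD mice and the other 3 above them. The SD was 2.27 between treated and 0.608 between untreated mice (limma adjusted p = 0.129, exact permutation p = 0.00554). S100a8, its partner, was -2.52, -1.57, 0.40, 1.87 and 3.94 in HFD MTX50 and -0.67, 0.90, -3.26, 0.86 and -2.92 in LFD MTX50 mice (limma adjusted p = 0.138, exact permutation p = 0.00781), and Retnlg, a secreted neutrophil protein, had an SD of 1.88 between treated and 0.592 between untreated mice (limma adjusted p = 0.144, exact permutation p = 0.00857).

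The genes of primary granules, made in immature neutrophils in the marrow, were high in 1 mouse. Mpo, the myeloperoxidase, was 2.76 in HFD MTX50 mouse 5 and -2.51, -2.32, -2.79, -2.13 and -2.81 in LFD MTX50 mice, with the other HFD MTX50 mice between -3.05 and -1.79. Prtn3, proteinase 3, was 1.01 in that mouse and between -3.20 and -2.01 in the other 17 livers. That mouse carried 74.3% of the treated variation of Mpo and 76.7% of that of Prtn3. Of the list, 8 of 12 neutrophil genes spread more and none less (median ratio 3.28). The list mean, centred on the group, was -1.13, -0.61, -0.22, 0.16 and 1.79 in HFD MTX50 mice, and the erythroid list mean was -0.52, -0.41, -0.34, 0.49 and 0.78. Both lists were highest in mouse 5 and lowest in mouse 1.

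The p53 targets differed in which mice stood out. Cdkn1a, the cell cycle inhibitor p21, was -3.75, -4.60, -3.61 and -4.03 in the LFD mice, -2.64, -1.64, -1.41, -3.5 and -0.80 in the LFD MTX50 mice, -4.25, -3.84, -2.78 and -3.61 in the HFD mice and -0.82, -0.61, -4.49, -4.35 and -2.77 in the HFD MTX50 mice. HFD MTX50 mice 1 and 2 and LFD MTX50 mouse 5 were highest, and HFD MTX50 mice 3 and 4 were as low as untreated mice. The SD was 1.52 between treated and 0.538 between untreated mice (limma adjusted p = 0.13, exact permutation p = 0.00838). Of the variation among HFD MTX50 mice, 86.7% lay between slides 5 and 6. HFD mice 3 and 4 on slide 5 were at -2.78 and -3.61, and the part of the slide was not tested. A second probe of Cdkn1a followed the first with an r of 0.60 and had a log2 variance ratio of 0.98, and with normexp background correction the ratio of the first changed from 2.99 to -2.03. Trp53inp1, which p53 induces, was 2.02, 2.34, 0.56, 0.51 and 0.92 in HFD MTX50 mice, with an SD of 0.713 between treated and 0.257 between untreated mice (limma adjusted p = 0.0764, exact permutation p = 0.00145), and its second probe followed with an r of 0.31. Zmat3, another p53 target, was -0.86 in HFD MTX50 mouse 1 and between -2.55 and -1.79 in the other treated mice. Of 18 p53 targets 10 spread more and none less, with a median ratio of 2.42 and a median correlation between members of only 0.20.

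Stress genes of the endoplasmic reticulum and of amino acid shortage spread more in 0 of 17 cases and less in 1 (median ratio 0.38). Ddit3, the factor CHOP, was nevertheless 0.61 in HFD MTX50 mouse 1 and between -2.44 and -1.49 in the other 17 livers. Atf3 was 0.30 in that mouse and at most -2.78 in the others. Trib3, a pseudokinase of the same response, was 3.24 there and at most 1.49 elsewhere. None of these 3 passed an unadjusted limma p of 0.05, and without that mouse the log2 variance ratio changed from 3.70 to -0.68 for Ddit3 and from 3.14 to -0.058 for Atf3. The member with less spread was Herpud1, a degradation factor of the endoplasmic reticulum (log2 variance ratio -1.66).

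Folate and one-carbon genes surround the target of methotrexate. Of 23 folate and one-carbon genes 11 spread more and none less (median ratio 1.95), with a median SD of 0.284 between treated and 0.155 between untreated mice. Shmt2, the mitochondrial serine hydroxymethyltransferase, was 1.47, 1.74, 1.39, 1.13 and 2.07 in LFD MTX50, 1.10, 0.87, 1.22, 1.26 and 1.56 in HFD MTX50 and between 1.37 and 1.56 in untreated mice, with an SD of 0.31 between treated and 0.0521 between untreated mice (limma adjusted p = 0.153, exact permutation p = 0.00687). Mouse 5 was highest in both treated groups. Bhmt, which uses betaine to remake methionine, was 5.46 in LFD MTX50 mouse 4 and between 6.53 and 7.96 in the other treated mice (limma adjusted p = 0.192, exact permutation p = 0.0129), and its 2 other probes had log2 variance ratios of 3.39 and 3.97.

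Male-biased liver genes, which pulses of growth hormone sustain, fell in mean in treated mice for 7 of 13 members, and 8 of the 13 spread more (none less, median ratio 2.44). Elovl3, a fatty acid elongase, was -3.51, -1.69, -2.60, -2.46 and -4.03 in LFD MTX50 mice against 4.12, 2.46, 3.61 and 4.37 in LFD mice, so that every treated mouse lay below, and its spread did not pass (limma adjusted p = 0.275, exact permutation p = 0.0859). Mup1, a major urinary protein, was 7.88, 7.60, 8.14, 8.0 and 6.13 in LFD MTX50 and 6.51, 8.09, 7.94, 8.21 and 8.5 in HFD MTX50 mice against 7.91 to 8.41 in untreated mice (limma adjusted p = 0.187, exact permutation p = 0.0108). It was lowest in LFD MTX50 mouse 5 and HFD MTX50 mouse 1, and Mup20 was the lowest of each group in the same mice, at 5.35 and 7.38 against 7.71 to 8.25 in untreated mice. The Mup genes are near-identical copies whose probes can share signal. The centred mean of the list was -1.04 in LFD MTX50 mouse 5 and -1.33 in HFD MTX50 mouse 1. Hsd3b5, a male-specific steroid reductase, spread in untreated HFD mice too (3.88, 1.91, -1.23 and 1.87), with SDs of 2.61 between treated and 1.51 between untreated mice (exact permutation p = 0.0377), and 93.1% of its variation among HFD MTX50 mice lay between slides. Of 11 female-biased genes tested 3 spread more. Sult1e1, an oestrogen sulfotransferase, was -0.12 in LFD MTX50 mouse 5 and between -2.48 and -1.53 in the other treated mice.

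Some drug metabolism genes were low in HFD MTX50 mouse 5. Of 11 targets of the xenobiotic receptors CAR and PXR 6 spread more (none less, median ratio 2.96). The members did not vary together, with a median correlation of 0.063 over treated mice. Cyp3a11, a major drug-oxidising enzyme, was 2.02 in that mouse, 4.33, 5.50, 4.21, 5.34 and 4.41 in LFD MTX50 mice and 3.76 to 4.97 in the other HFD MTX50 mice (limma adjusted p = 0.172, exact permutation p = 0.00441). Its second probe followed with an r of 0.997. Abcc3, an exporter of conjugates, was 0.17 in HFD MTX50 mouse 5 and between 1.45 and 2.89 in the other treated mice. Cyp3a44, listed with the female-biased genes, was -3.17 in that mouse and between -0.76 and 0.84 in the others. With 1 array left out, Abcc3 lost an unadjusted limma p below 0.05 in 9 of 18 fits and Cyp3a44 in 12. Of 8 targets of the oxidant sensor NRF2 4 spread more (none less, median ratio 3.12). Gclc, which limits glutathione synthesis, was lowest in mouse 5 of both treated groups, at 2.15 and 2.99 (limma adjusted p = 0.213, exact permutation p = 0.0348), and Osgin1 had an SD of 0.732 between treated and 0.164 between untreated mice (limma adjusted p = 0.151, exact permutation p = 0.00781).

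Interferon-stimulated genes spread more in 6 of 20 cases (none less), with a median ratio of 0.72 below that of all genes. Usp18, which damps interferon signals, was 1.12, 1.04, -1.26, -0.40 and -1.5 in HFD MTX50 mice and -1.17, -0.84, -1.23, -1.24 and -1.35 in LFD MTX50 mice, and its exact permutation p of 0.061 did not pass. Ifi44 was -0.91, -1.90, -3.56, -2.64 and -3.32 in HFD MTX50 mice (limma adjusted p = 0.19, exact permutation p = 0.0275). Mice 1 and 2, on slide 5, were highest in both genes. Ifit1 spread nearly as much in untreated mice, with SDs of 0.68 between treated and 0.591 between untreated mice (exact permutation p = 0.667).

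The median SD of clock genes was similar in both arms. Of 19 clock genes 2 spread more and none less, and their median SD was 0.427 between treated and 0.459 between untreated mice. Gene by gene, the log2 variance ratio was above 0 for 13 of the 19 (68.4%, beside 80.2% of all genes), with a median of 0.60. Dbp, an output of the clock, was -0.0059, 2.23, 0.19 and -0.23 in the LFD mice, 2.46, 0.21, 0.72, 0.58 and 0.61 in the LFD MTX50 mice, 2.08, 2.38, 1.48 and 2.15 in the HFD mice and 1.03, 0.91, 1.82, 2.54 and 1.33 in the HFD MTX50 mice. LFD mouse 2 and LFD MTX50 mouse 1 stood above the rest of their groups, and the SDs were 0.782 between treated and 0.847 between untreated mice, a ratio of 0.923 (exact permutation p = 0.980). Without LFD mouse 2 the log2 variance ratio of Dbp changed from -0.23 to 2.52, so that this value rests on 1 untreated mouse. Per2, a core clock gene, had SDs of 0.427 between treated and 0.512 between untreated mice (exact permutation p = 0.755). Without LFD mouse 1 its log2 variance ratio turned to 1.88.

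Among the other cell type lists, more spread was found for 1 of 13 macrophage, 1 of 11 stellate cell and collagen, 1 of 8 endothelial, 0 of 5 bile duct, 3 of 12 lymphocyte, 1 of 9 exocrine pancreas, 1 of 6 adipose and 1 of 6 skeletal muscle genes. Of 25 respiratory chain subunits 5 spread more (median ratio 1.48), while 10 fell in mean, beside 1312 of all 17719 genes. Of 20 cell cycle genes 5 spread more, and of 12 bile acid genes 4. Albumin, at 7.74 to 8.46 in all livers, had SDs of 0.154 between treated and 0.114 between untreated mice (exact permutation p = 0.576). Hepatocyte markers spread more in 1 of 9 cases.

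**Figure D5:**
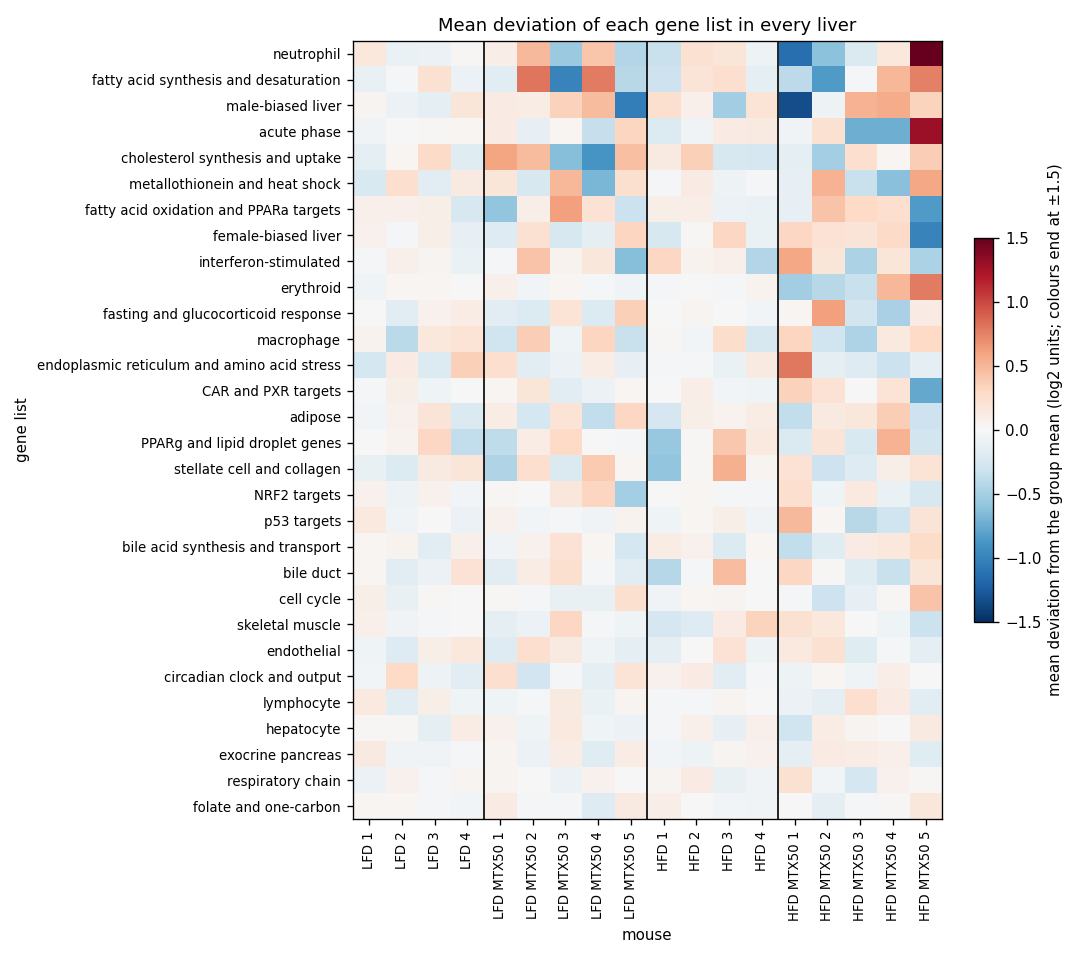
Mean deviation of each of 30 gene lists (rows, ordered by the SD over treated mice) from the group mean in every liver (columns), in log2 units, red above and blue below. HFD MTX50 mouse 5 is high for the neutrophil (1.79, beyond the colour range) and acute phase (1.28) lists and low for the female-biased (-1.01) list, and HFD MTX50 mouse 1 is low for the male-biased list (-1.33).

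The spread in treated livers came unequally from the mice. HFD MTX50 mouse 1 held 17.4% and mouse 5 held 16.3% of the sum of squared deviations over all genes, and LFD MTX50 mouse 2 held 4.04%. These 2 HFD MTX50 mice were the farthest from the mean for 19.9% and 21.1% of genes. For 3112 genes (17.6%) a single treated mouse carried more than 50% of the squared deviations. Among the 3257 genes that spread more this was so for 300 (9.21%), most often HFD MTX50 mouse 5 (110 genes) and mouse 1 (92 genes).

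In 4 genes a wide spread came from 1 mouse that stood far above all others. Mrgprx2 was 7.06 in HFD MTX50 mouse 3 and between -4.25 and -3.25 in the other 17 livers, and its SD of 3.44 between treated mice was the largest of all genes. Cyth3, an exchange factor for small GTPases, was 5.00 in HFD MTX50 mouse 5 and at most -1.56 elsewhere. S100g, a calcium-binding protein, was 2.99, and Nupr1, a stress-induced nuclear protein, was 2.54 in HFD MTX50 mouse 1, against at most -2.37 and -1.83 elsewhere. Each of these 4 was read on 1 probe only, so that no second probe bears on them. Without HFD MTX50 mouse 3 the log2 variance ratio of Mrgprx2 changed from 7.04 to -1.03.

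The genes named for less spread in treated mice had 1 or 2 far untreated mice. C1qb, a complement chain made by macrophages, was -3.32 in LFD mouse 1 and between -0.26 and 0.72 in the other 17 livers (limma adjusted p = 0.167, exact permutation p = 0.00605). Prkra, an activator of the kinase PKR, was -4.60 in the same mouse and between -2.11 and -1.15 in the others (limma adjusted p = 0.183, exact permutation p = 0.0251). Without that mouse the log2 ratios changed from -4.16 to 0.45 for C1qb and from -4.31 to 1.86 for Prkra. Cdc5l, a splicing factor, was the gene called with less spread in high fat mice (adjusted p = 0.00338) and the gene whose spread difference depended on the diet (adjusted p = 0.0448). Its level was -2.98, -3.17, -2.12 and -2.12 in HFD mice and -2.87, -2.96, -2.83, -2.92 and -2.99 in HFD MTX50 mice. On the low fat diet it was -2.86, -2.89, -2.87 and -2.68 without and -2.77, -2.93, -2.45, -2.92 and -2.97 with MTX. The split in HFD followed the slides, with mice 1 and 2 on slide 4 and mice 3 and 4 on slide 5. HFD MTX50 mice 1 and 2, also on slide 5, were at -2.87 and -2.96, and the part of the slide was not tested.

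The 2 genes called in low fat mice were Tmem177, a mitochondrial assembly protein, and 5830411N06Rik. Tmem177 was -0.54, -1.46, -1.46, -1.51 and -0.55 in LFD MTX50 and -1.30, -1.32, -1.32 and -1.25 in LFD mice (adjusted p in low fat = 0.0251), and it shared the smallest adjusted p over both diets, 0.0657, with an exact permutation p of 0.000126. Its other probe did not follow, with an r of -0.55 and a log2 variance ratio of -0.51 against 6.35. 5830411N06Rik was -3.46, -2.92, -5.44, -5.83 and -3.26 in LFD MTX50 mice and between -5.43 and -4.93 in LFD mice (adjusted p = 0.0223).

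Pairs of genes were tested for varying together, among 16 genes taken from several processes, of which Scd1 and Fasn, Dbp and Per2, and Pck1 and Igfbp1 share a list. There were 120 pairs over the 10 treated mice, and none passed an adjusted p of 0.05 (14 pairs at an unadjusted exact permutation p below 0.05, smallest adjusted p 0.272). The closest was Pck1 with Mt2, with r = 0.86 (permutation p = 0.00306) and rho = 0.83 (permutation p = 0.00653), r = 0.82 without the 2 farthest mice and r = -0.25 over the 8 untreated mice. Sqle and Cyp7a1 had r = 0.90 (permutation p = 0.0066) and rho = 0.78 (permutation p = 0.00854), with r = 0.74 without the 2 farthest and -0.23 in untreated mice. Scd1 and Elovl3, a fatty acid elongase of the male-biased list, had r = 0.81 (permutation p = 0.00681) and rho = 0.83 (permutation p = 0.00604), with r = 0.78 without the 2 farthest and -0.40 in untreated mice. Scd1 and Fasn had r = 0.73 (permutation p = 0.0124) and rho = 0.88 (permutation p = 0.00146), with r = 0.80 without the 2 farthest and 0.61 in untreated mice. These pairs, those with the smallest p for r, did not pass the correction, with adjusted p of 0.272 for the first 3 and 0.2875 for the last (exact permutation over 14400 arrangements, n = 10).

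Within lists, members varied together to different degrees. The median correlation between members over treated mice was 0.73 for the acute phase, 0.72 for cholesterol synthesis, 0.68 for fatty acid synthesis, 0.65 for interferon-stimulated and 0.61 for male-biased genes. Over untreated mice it was 0.22, 0.73, 0.48, 0.40 and 0.28. Cholesterol genes therefore varied together whether or not mice were treated, whereas stellate cell and collagen genes did so in untreated (0.81) and not in treated mice (0.09). With 10 and 8 mice and shared arrays these are descriptions only.

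The genes whose centred levels most resembled Scd1 over the 10 treated mice were Acat2, a thiolase of the sterol pathway (r = 0.96), and the neutrophil genes S100a9 (0.96), S100a8 (0.96) and Retnlg (0.95), with Serinc5, Ctu2, Ddx52, Prkra, Prpf19 and Zfyve19 between 0.95 and 0.96. Over the 8 untreated mice the same correlations were -0.81 for Acat2, 0.31 for S100a9, 0.38 for S100a8 and 0.32 for Retnlg. The points share the arrays, and 84.8% of the variation of Scd1 among HFD MTX50 mice lay between slides. For the 10 genes most like it this share ranged from 67.7% (Ddx52) to 91.7% (Prkra), with 88.5% for Acat2. These genes were picked as the closest among all genes tested, so that nothing is read from the size of r. A second probe of Ctu2 ran opposite to the first, with an r of -0.89. The genes most like Hbb-bt included Hbb-b2 (r = 0.99), Hba-a1 (0.97), Prdx6, an antioxidant enzyme (0.98), and Trim59 (0.97).

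More spread was not the same as a change of mean. Of the 3257 genes that spread more, 717 (22%) differed in mean between treated and untreated livers at a limma adjusted p below 0.05, 340 up and 377 down, beside 16.2% of all genes. The other genes that spread more did not pass that test. The ratio also rose with brightness. From the dimmest to the brightest of 4 equal groups of genes the median log2 variance ratio was 0.92, 1.05, 1.28 and 1.43, and 15.7%, 16.8%, 19.4% and 21.6% of genes spread more.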

How the data were processed

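Liver RNA of 18 mice was hybridised to Agilent one-colour arrays, 4 to a slide. The authors deposited spot intensity from Agilent Feature Extraction 10.7.3.1 (gProcessedSignal, background-subtracted) and a table of background-subtracted intensities. The log2 values of that table were used as an alternative. Control spots and outlier spots were left out, spots of a probe were averaged, and log2 intensity was taken relative to the 75th percentile of the array. Of 39429 probes, 71.1% had a name, updated through RefSeq, and 31399 were well above background on all 18 arrays. A gene was read on its brightest tested probe.

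Deviations from the group mean, scaled for group size, were tested as absolute values with limma 3.58.1 (R 4.3.3), with Benjamini-Hochberg adjustment over all probes. Exact permutation tests, correlations and plots used Python 3.11.15, numpy 2.4.6, pandas 2.3.3, scipy 1.17.1 and matplotlib 3.10.9, and the tests were checked on simulated data. The study's methods name no test of spread. The members, the 30 lists and the 16 genes paired with each other were chosen with earlier results of these data known.

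Named were the 20 genes called with more and the 10 called with less spread (none was called over both diets), the 15 with the largest SD over treated mice, the 16 paired genes, up to 5 members of a list by size of the ratio, the 5 genes with the smallest adjusted p for diet dependence, and the 10 genes most correlated with Scd1 and with the gene of largest SD. Genes called in 1 diet and other genes were named after their values were seen, and some results are not reported here. The alternatives were quantile normalization, median scaling, normexp background correction (offset 50, on median spot and background intensity), the deposited table, other probe filters, the group median or the group and slide mean as centre, an F test, a trended robust fit, a replicate block, and each array left out. The number of arrays limits the precision.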

Additional observations from a re-analysis of the deposited data

Results flagged for a closer look

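In 34 of 296 groups of 4 or 5 mice (11.5%), over 73 genes and the distance of each array from its group mean, 1 mouse lay far from the others by Dixon's criterion, and 20 of these were in treated groups. Chance alone meets this in about 1 of 20 groups, but many of the genes were named for their spread over the same mice, so that nothing is read from the share. HFD MTX50 mice 1 and 5 had 5 each. In HFD MTX50 mouse 1 these were Ddit3 (0.61), Atf3 (0.30), Mup1 (6.51), S100g (2.99) and Nupr1 (2.54), and in mouse 5 they were Acadm (3.05), Mpo (2.76), Prtn3 (1.01), Abcc3 (0.17) and Cyth3 (5.00). The others in that group were Plin5 in mouse 2 (4.12), and Hspd1 (4.71) and Mrgprx2 (7.06) in mouse 3.

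In LFD MTX50 mice such levels were found for Dbp (2.46) and Per2 (-2.17) in mouse 1, Acadm in mouse 3 (4.17), Cyp7a1 (-2.26) and Bhmt (5.46) in mouse 4, and Lcn2 (3.39) and Mup1 (6.13) in mouse 5.

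In untreated LFD mice they were C1qb (-3.32) and Prkra (-4.60) in mouse 1, Pck1 (4.34) and Gclc (4.41) in mouse 2, Apcs (-0.0076) and Abcc3 (2.39) in mouse 3, and Acot1 (1.29) and Cdc5l (-2.68) in mouse 4. In HFD mice they were Srebf1 in mouse 1 (-0.84), Bhmt (7.71) and Per2 (-2.69) in mouse 2, Cyp7a1 in mouse 3 (-0.46), and Ddit3 (-1.65) and Trib3 (0.19) in mouse 4.

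Cdc5l was the gene whose difference in spread depended on the diet, by -0.59 in mean absolute deviation (limma adjusted p = 0.0448).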

How the results depend on the processing

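The direction of the shift over both diets, by the median log2 variance ratio over probes, held under every alternative run: the median log2 variance ratio over probes was 1.12, between 0.93 and 1.45 with 1 array left out, 0.76 with a replicate block and 0.37 with normexp. The array distance was 0.0935 and between 0.0805 and 0.110 with 1 array left out (exact permutation p between 0.00317 and 0.0211). It was 0.184 with an exact permutation p of 0.325 with normexp, under which array medians ranged from -2.33 to -0.29 against -2.62 to -2.29. Within HFD, unadjusted calls turned from 2627 more and 361 less to 154 and 338 with normexp. Counts of called genes did not hold. For treated against untreated mice, 0 genes became 20 with quantile normalization, 15 with probes above background on at least 4 arrays, 1 with the brighter probes, 172 by the F test and 652 with the group and slide mean as centre, and 0 to 2.4e+02 with 1 array left out, mostly of less spread without LFD mouse 2, 3 or 4. In LFD, 2 became 7 with quantile normalization, 1 with the deposited table, 1 with the brighter probes, 76 with the slide mean, 0 with normexp, the group median and the F test, and 1 to 219 with 1 array left out, mostly of less spread without any 1 of the LFD mice. In HFD, 26 became 50 with quantile normalization, 46 with median scaling, 51 with the deposited table, 41 with at least 4 arrays, 47 with the brighter probes, 43 with a trended robust fit, 1066 with the slide mean, 0 with normexp, the group median and the F test, and 7 to 389 with 1 array left out. The single gene that depended on diet became 0 with quantile normalization, median scaling, normexp, the brighter probes, the group median and the trended fit, 5 with at least 4 arrays, 32 with the slide mean, and 0 to 114 with 1 array left out. Slide means lower the residual by construction, since both arrays of a pair then deviate equally. Genes with more spread at an unadjusted p numbered 3257, 341 with normexp, 621 with the group median, and 2541 to 4006 with 1 array left out. They numbered 2074 of the 9936 genes tested among the brighter probes. Causes were otherwise not tested.

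Untreated and treated mice of a diet that shared a replicate number were not more alike than others. The correlation of their deviations was between -0.40 and 0.23 over 8 pairs, with 1 above 0.1. Over 32 differently numbered pairs it was between -0.31 and 0.40, with 11 above 0.1. LFD MTX50 and HFD MTX50 mice of the same number were not compared. A replicate block gave 20 genes over both diets, 0 in LFD, 0 in HFD and 0 for diet dependence, and turned the ratio of Dbp to 0.26 and that of Cd36 to 0.40.

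Of 2170 values for 73 named genes, 1876 kept their sign and their side of an unadjusted p of 0.05. A further 51 came to lie below 0.05. Most of the others lost a p below 0.05 without changing sign. With 1 array left out, this loss occurred in 13 of 18 fits for S100g, 12 for Cyp3a44 and 11 for Sult1e1. For Fasn and Cyth3 it occurred in 10 each. The sign changed in 21 values, in 16 genes. With normexp the log2 variance ratio was -0.0059 for Acat2, -2.03 for Cdkn1a, 0.45 for Per2 and 0.31 for Cdc5l. With the slide mean it was -0.79 for Hsd3b5, -1.0 for Ifit1 and 1.62 for Cdc5l. With 1 array left out it ranged from -0.79 to 2.08 for Alb, -0.058 to 4.36 for Atf3, -4.48 to 0.45 for C1qb, -1.45 to 0.37 for Cd36, -2.71 to 0.047 for Cidec, -0.37 to 2.96 for Cyp7a1, -1.38 to 2.52 for Dbp, -0.68 to 4.32 for Ddit3, -0.30 to 0.93 for Ifit1, -1.03 to 8.60 for Mrgprx2, -2.27 to 1.88 for Per2 and -4.59 to 1.86 for Prkra. No pair of genes passed the adjusted threshold under any alternative run. The comparison within slide 5 was added after seeing the data.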
